A study of Mus musculus with 16 samples.

Results

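The nuclear-encoded subunits of the oxidative phosphorylation system were followed in livers of female B6C3F1 mice. A gene was taken as a member if its symbol, reached by matching the array's accession to RefSeq, began with Nduf, Uqcr, Cox4 to Cox8 or Atp5, or was Sdha, Sdhb, Sdhc, Sdhd, Cyc1 or Cycs. The array held 95 such genes, read by 128 of its 55681 probes, and 123 of them, for 92 genes, were tested among 29685 probes that passed the filter on dim signals. All mice were gavaged daily for 21 days, with furan at 8 mg/kg in corn oil or with corn oil alone. Livers were taken 4 h after the last dose, so the last dose and the earlier ones cannot be told apart. Liver tissue was fixed in formalin for 3 weeks or for 18 h before embedding in paraffin. Sample numbers recur at both times, and the labels do not say whether a number marks the same liver. Fits over both times treated them as separate samples. The groups were furan at 3 weeks (4 samples), corn oil at 3 weeks (3 samples on 4 arrays), furan at 18 h (4 samples) and corn oil at 18 h (4 samples). RNA came from 2 sections of each block at 3 weeks and from 1 section at 18 h, so the amount of tissue and the time in formalin cannot be told apart. Each sample was labelled with Cy5 and hybridised against a Cy3 pool of all samples, and every value below is a log2 ratio of the sample to that pool, or a difference between such ratios. In bulk liver, fewer cells of a type and less RNA per cell cannot be told apart.

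Oxidative phosphorylation takes place at the inner mitochondrial membrane. Electrons from NADH enter at complex I and those from succinate at complex II, pass through complex III and cytochrome c to oxygen at complex IV, and the proton gradient so built drives ATP synthesis by complex V. Hepatocytes are rich in mitochondria, and most subunits are encoded in the nucleus, while a small set is encoded by mitochondrial DNA. No probe with a gene symbol matched the 13 mitochondrially encoded subunits, but 28446 of the 55681 probes had no symbol. Whether the array reads these subunits is therefore not known, and only nuclear genes are described here. Furan is a liver toxicant that hepatocytes oxidise to a reactive dialdehyde.

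Members were among the bright probes, with a median log2 brightness of 11.81 over the 123 probes, against 8.06 over all tested probes. The 5 untested probes were the single probes of Cox8b, Cox7b2 and Ndufaf2, 1 probe of Ndufaf5 and 1 of Cycs, which were well above background on between 0 and 6 of the 16 arrays. Cox8b is an isoform of heart and skeletal muscle, and Cox7b2 one of testis. At 18 h a larger share of all probes stood well above background in furan livers (53.7% ± 1.48, SD, n = 4) than in corn oil livers (47.3% ± 3.18, SD, n = 4; exact permutation test, two-sided, p = 0.0286, the smallest this design allows). At 3 weeks it was 38.1% ± 2.39 (SD, n = 4) in furan livers and 34.2% ± 1.77 (SD, n = 3) in corn oil livers (exact permutation test, p = 0.0571). The data matched the liver label, since all 11 tested probes of hepatocyte markers were well above background on all 16 arrays, whereas probes of the cholangiocyte marker Krt19 and the B cell marker Ms4a1 were so on 0 arrays.

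After 18 h in formalin, furan livers differed from corn oil livers at 60 of the 123 probes, with 41 higher and 19 lower. Over all tested probes 47.2% passed the same threshold (limma, Benjamini-Hochberg adjusted p under 0.05), 20.4% higher and 26.8% lower, and over probes of protein-coding genes 51.2%, 26.8% higher and 24.4% lower. The share of members called, 48.8%, lay near that background, with 33.3% higher and 15.4% lower. The median change of the members was 0.15, against -0.05 over all tested probes and 0.02 over those of protein-coding genes. Among the called probes 9 rose by at least 0.5 and 16 fell by at least that much. The share of all tested probes beyond that size was not counted, so these counts cannot be set against a background. The balance of directions depended on how the arrays were scaled: with median centring in place of loess, 97 were higher and 7 lower, and the median of all tested probes moved to 0.10. The sizes moved too, since median centring put Atp5j at 1.39 and Cyc1 at -0.51, where loess gave 0.82 and -1.01. The values deposited by the authors gave 64 rises and 18 falls, and leaving out the background subtraction gave 33 and 25. Within slide 1, with 2 livers of each treatment, 15 were higher and 15 lower, and within slide 2, also with 2 of each, 11 were higher and 16 lower. Shares of all tested probes called under these settings are not given, so these splits cannot be set against a background. Per sample, the median over the 123 probes lay between 0.03 and 0.05 in furan livers and between -0.12 and 0 in corn oil livers. Furan livers lay above corn oil livers without overlap at 48 of the 123 probes and below them at 20. Over all 29685 tested probes they lay above at 5305 and below at 6329, so groups without overlap were common on the array.

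**Figure D1:**
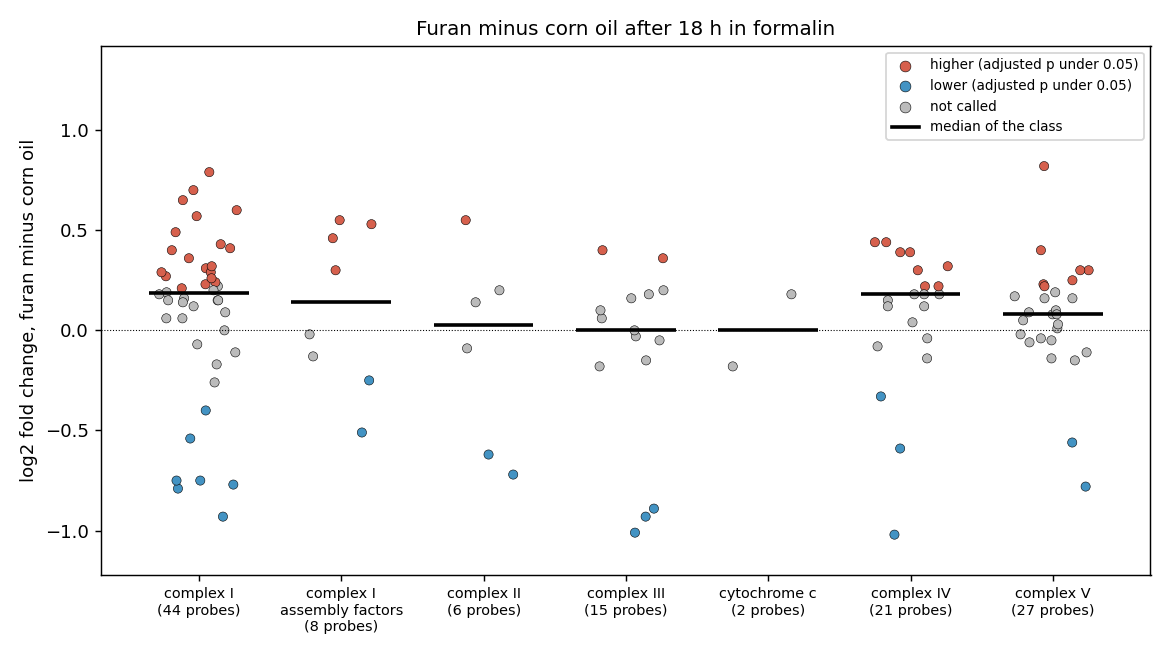
Change of each of the 123 probes in furan livers relative to corn oil livers after 18 h in formalin (vertical axis, log2 fold change), grouped by respiratory complex; colours mark adjusted p under 0.05, black bars the median of each class. Each complex except cytochrome c held probes in both directions, most rises lay under 0.5, and the lowest values were those of Cox6b1 (-1.02) and Cyc1 (-1.01); with median centring 97 probes would be higher and 7 lower, with Atp5j at 1.39 and Cyc1 at -0.51.

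Complex I takes electrons from NADH and is the largest of the complexes. Classes follow the gene symbol, so complex I holds every Nduf gene except the Ndufaf genes, with Ndufa4 and Ndufa4l2 included. Whether each is a subunit of that complex was not checked. Of its 44 probes, 19 rose and 7 fell (59.1% called), and the median change was 0.18. Over all tested probes 47.2% were called, and 51.2% over those of protein-coding genes, as a background for each class below. Among the subunits that carry its catalytic core, Ndufs1, which holds iron-sulfur clusters of the electron path, stood at 0.54, 0.35, 0.44 and 0.25 in furan livers, against 0.00, 0.15, 0.10 and 0.03 in corn oil livers, without overlap, and rose by 0.32 ± 0.09 (SE, adjusted p = 0.00977). Ndufs3 rose by 0.49 ± 0.08 (SE, adjusted p = 0.000735). Ndufv1, which binds NADH and flavin, changed by 0.09 ± 0.08 and did not pass the test (adjusted p = 0.382).

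Ndufs8, a core subunit with further iron-sulfur clusters, went the other way. It stood at -0.08, 0.29, -0.08 and 0.03 in furan livers and at 0.80, 0.74, 0.64 and 0.97 in corn oil livers, without overlap, and fell by 0.75 (SE 0.11, adjusted p = 0.000383).

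Among the accessory subunits of complex I, Ndufa11, Ndufa10 and Ndufa6 fell. Ndufa11, an accessory subunit of the membrane arm, stood at -0.38, -0.24, -0.42 and -0.32 in furan livers and at 0.60, 0.42, 0.68 and 0.64 in corn oil livers, and fell by 0.93 (SE 0.09, adjusted p = 3.75e-05). Ndufa10 stood at 0.06, 0.05, -0.28 and -0.21 in furan livers and at 0.57, 0.78, 0.82 and 0.64 in corn oil livers, a fall of -0.79 ± 0.08 (SE, adjusted p = 3.83e-05). The groups did not overlap for either gene, and the fall of Ndufa10 lost its call with median centring (-0.29, adjusted p = 0.0666).

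The accessory subunits Ndufs4 and Ndufa7 rose, and both probes of Ndufb4 rose with them. Ndufs4, which is needed for a stable complex I and is mutated in human Leigh syndrome, stood at 0.52, 0.48, 0.54 and 0.37 in furan livers, against -0.41, -0.23, -0.40 and -0.19 in corn oil livers, a rise of 0.79 ± 0.09 (SE, adjusted p = 8.43e-05). Ndufa7 stood at 0.38, 0.23, 0.28 and 0.29 in furan livers and at -0.45, -0.42, -0.34 and -0.38 in corn oil livers, a rise of 0.70 ± 0.08 (SE, adjusted p = 8.33e-05). Neither gene had a furan liver inside the range of the corn oil livers. The Ndufb4 probes rose by 0.60 ± 0.08 and 0.65 ± 0.08 (SE, adjusted p = 0.000277 and 0.000169).

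Of 8 probes of complex I assembly factors, which build the complex without staying in it, 4 rose and 2 fell (75% called). Ndufaf7, a methyltransferase, stood at 0.82, 0.57, 0.54 and 0.44 in furan livers and at -0.09, 0.23, -0.03 and 0.04 in corn oil livers, without overlap, and rose by 0.55 ± 0.10 (SE, adjusted p = 0.00107). Ndufaf3 was lower, at 0.27, 0.12, 0.21 and 0.51 in furan livers against 0.80, 0.87, 0.93 and 0.56 in corn oil livers, a change of -0.51 ± 0.11 (SE, adjusted p = 0.00376).

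Complex II links the tricarboxylic acid cycle to the chain. Its flavoprotein subunit Sdha stood at 0.16, 0.12, 0.02 and 0.08 in furan livers and at -0.17, -0.12, -0.01 and -0.10 in corn oil livers, a difference of 0.20 ± 0.08 that did not pass the test although the groups did not overlap (SE, adjusted p = 0.0572). For the membrane anchor Sdhc the probes disagreed. Probe 1 stood at 0.03, 0.15, 0.19 and 0.25 in furan livers, against -0.41, -0.43, -0.46 and -0.29 in corn oil livers, and rose by 0.55 ± 0.08 (SE, adjusted p = 0.000330). Probe 2 stood at -1.16, -1.16, -1.12 and -0.99 in furan livers, against -0.48, -0.51, -0.45 and -0.50 in corn oil livers, and fell by 0.62 (SE 0.08, adjusted p = 0.000165), a fall whose call was lost with median centring (-0.11, adjusted p = 0.539). The iron-sulfur subunit Sdhb gave -0.09 ± 0.08 on its bright probe (adjusted p = 0.356) and -0.72 ± 0.09 on its dimmer probe (SE, adjusted p = 0.000147).

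Complex III passes electrons from ubiquinol to cytochrome c, and 2 of its 15 probes rose and 3 fell (33.3% called). Cyc1, the cytochrome c1 heme protein that hands electrons on, stood at -0.30, -0.23, -0.48 and -0.52 in furan livers and at 0.55, 0.55, 0.78 and 0.61 in corn oil livers, and fell by 1.01 on the log2 scale (SE 0.09, adjusted p = 2.07e-05). Uqcrc1, a core protein of the matrix side, stood at -0.23, -0.18, -0.39 and -0.31 in furan livers and at 0.57, 0.48, 0.74 and 0.68 in corn oil livers, and fell by 0.89 (SE 0.09, adjusted p = 4.35e-05). For both genes all 4 furan livers were below zero and all 4 corn oil livers above it. The Rieske iron-sulfur protein Uqcrfs1 moved in the opposite direction, at 0.01, 0.05, 0.27 and 0.18 in furan livers against -0.25, -0.32, -0.32 and -0.02 in corn oil livers, a rise of 0.36 ± 0.08 (SE, adjusted p = 0.00528).

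The mobile carrier cytochrome c, encoded by Cycs, changed by 0.18 ± 0.08 on its bright probe and by -0.18 ± 0.09 on its dimmer one, and neither passed the test (SE, adjusted p = 0.0920 and 0.118).

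Complex IV reduces oxygen, and 8 of its 21 probes rose and 3 fell (52.4% called). Cox6b1, a subunit at the interface of the dimer, had the lowest change of all 123 probes. It stood at -0.28, -0.16, -0.41 and -0.14 in furan livers and at 0.84, 0.55, 0.91 and 0.80 in corn oil livers, with no overlap, and fell by 1.02 (SE 0.10, adjusted p = 4.64e-05). The regulatory subunit Cox4i1 stood at 0.46, 0.57, 0.41 and 0.31 in furan livers and at -0.08, 0.14, 0.05 and 0.09 in corn oil livers, a rise of 0.39 ± 0.08 (SE, adjusted p = 0.00332). Cox5a rose by 0.44 ± 0.10 and Cox7b by 0.44 ± 0.08 (SE, adjusted p = 0.00386 and 0.00162).

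The isoforms of complex IV that are typical of other tissues were dim in liver, with log2 brightness between 6.66 (Cox8c) and 8.12 (Cox7a1), against 13.76 for Cox6b1, although brightness also differs between probes for reasons of their sequence. Of the 5 tested isoform probes 2 rose (Cox6b2 and Cox7a1), 1 fell (Cox6a2) and 2 did not pass the test (Cox4i2 and Cox8c), or 60% called. Cox6a2, a heart and skeletal muscle isoform, stood between -1.27 and -1.19 in furan livers and between -0.91 and -0.88 in corn oil livers, a change of -0.33 ± 0.08 (SE, adjusted p = 0.00453). Its liver-type partner Cox6a1 changed by 0.18 ± 0.09, which did not pass the test (adjusted p = 0.101).

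Complex V makes ATP, and 7 of its 27 probes rose and 2 fell (33.3% called). Atp5j, coupling factor 6 of the peripheral stalk, had the highest change of all 123 probes. It stood at 0.29, 0.31, 0.40 and 0.35 in furan livers and at -0.61, -0.48, -0.54 and -0.29 in corn oil livers, without overlap, and rose by 0.82 ± 0.09 (SE, adjusted p = 6.44e-05). The catalytic alpha and beta subunits did not pass the test, with changes of 0.01 ± 0.08 for Atp5a1 and 0.09 ± 0.09 for Atp5b (SE, adjusted p = 0.939 and 0.415).

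**Figure D2:**
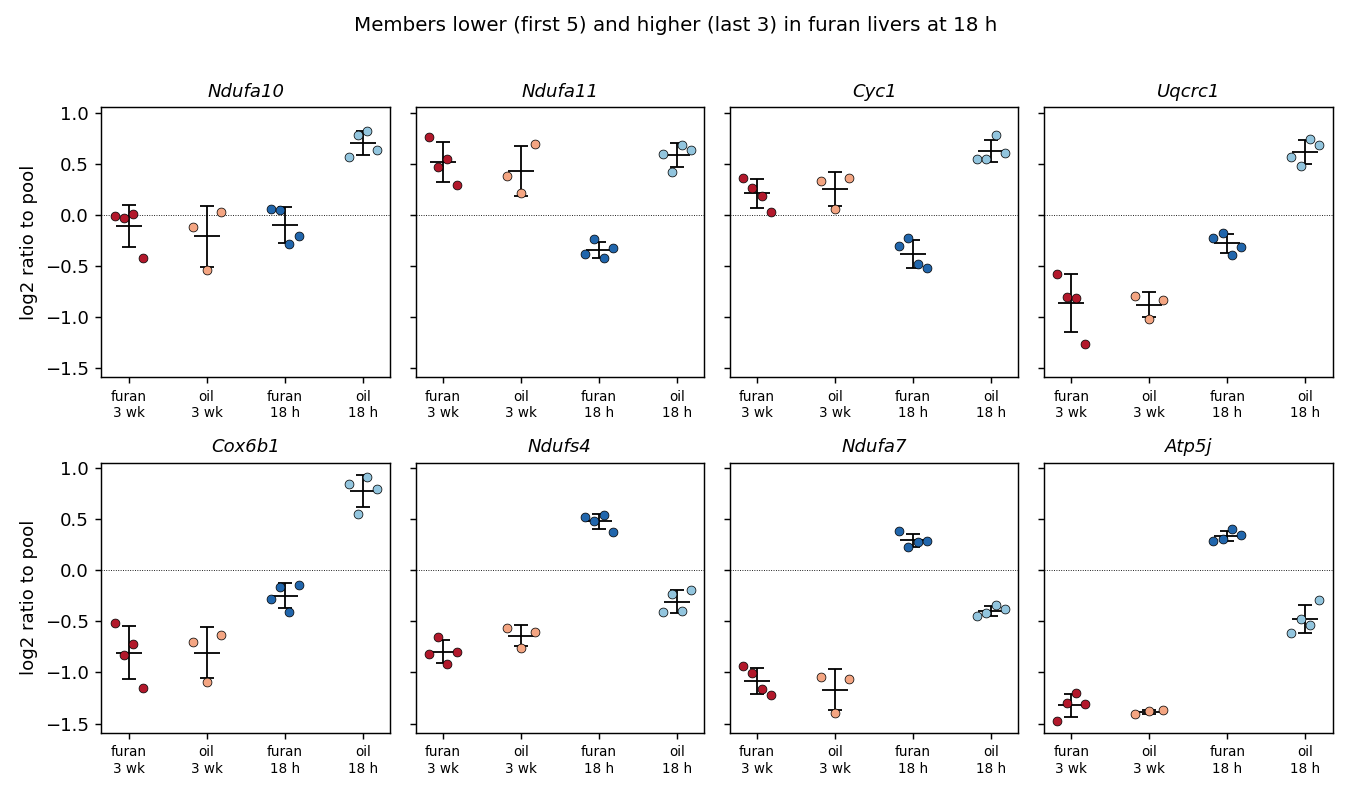
Log2 ratio to the pool (vertical axis) in each sample for 5 members that were lower and 3 that were higher in furan livers at 18 h; each point is a sample, the cross line and bar are the mean and SD, and the groups run from furan at 3 weeks to corn oil at 18 h. The 4 furan and 4 corn oil livers at 18 h are apart in every panel, while at 3 weeks the furan and corn oil livers overlap in every panel.

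The falls differed between probes of the same gene. Of the 19 lower probes, 11 belonged to genes with a single tested probe and 8 to genes with several. In none of those 8 genes did a second probe fall, and in 7 of them the probe that fell was not the brightest one. Uqcr10, a small subunit of complex III, had probes at 0.06 ± 0.08, 0.10 ± 0.08 and -0.93 ± 0.10, and the third, at -0.54, -0.47, -0.55 and -0.53 in furan livers against 0.52, 0.13, 0.57 and 0.43 in corn oil livers, passed the test (SE, adjusted p = 7.36e-05). Atp5j2, subunit f of the ATP synthase, had 1 probe that rose by 0.23 ± 0.08 and 1 that fell by 0.78 (SE 0.09, adjusted p = 0.0307 and 8.32e-05). Calls in opposite directions occurred in 4 of 24 member genes with several tested probes (16.7%: Ndufb6, Sdhc, Cox7c and Atp5j2), and in 15.5% of 3018 such genes on the array. These splits were not firm. With 1 sample left out, the rise of Atp5j2 probe 1 kept its call in 2 of 8 fits. The rises of Cox7c probes 1 and 3 kept theirs in 1 and 3 of 8. With median centring Sdhc probe 2, Cox7c probe 2 and Atp5j2 probe 2 lost the call of their fall, and Ndufb6 probe 1 turned to 0.11. Which transcripts or stretches the probes read is not given in the files used here.

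Lists of cell type markers were read in the same livers, where 47.2% of all tested probes were called. Of 11 hepatocyte marker probes 8 were lower and 1 higher in furan livers at 18 h, and their mean log2 ratio lay between -0.12 and 0 in furan livers and between 0.43 and 0.56 in corn oil livers. Of 9 Kupffer cell probes 3 were lower, and of 6 stellate cell probes 4, with a mean of -0.06 to 0.12 in furan livers and 0.30 to 0.46 in corn oil livers. Of 7 endothelial probes 2 were higher and 3 lower, of 7 erythroid probes 4 were lower, of 4 lymphocyte probes 2, of 2 cholangiocyte probes 1 and of 3 muscle probes 1. The shares called were 81.8% for hepatocyte, 66.7% for stellate, 71.4% for endothelial and 57.1% for erythroid probes, while those for Kupffer cell and muscle (33.3% each) and lymphocyte and cholangiocyte probes (50% each) lay near or below that of all probes. The part of these shifts in the changes of the members was not tested.

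Genes around the respiratory chain were read from lists of the same pathways. At 18 h 47.2% of all tested probes and 51.2% of those of protein-coding genes were called, as a background for each share below. Of 39 probes of assembly factors 12 rose and 5 fell (43.6% called). The smallest p-values were those of Surf1, a complex IV assembly factor (-0.84 ± 0.08), and Coa3, another one (0.81 ± 0.08; SE, adjusted p = 3.08e-05 and 4.62e-05), while 1 of 2 probes of Coa5 had a larger fall (-0.93 ± 0.10; SE, adjusted p = 7.41e-05). Of 18 probes of regulators of mitochondrial transcription and biogenesis 7 rose and 5 fell (66.7% called). Both probes of the coactivator Ppargc1a fell, by 0.73 (SE 0.13) and 0.65 (SE 0.15; adjusted p = 0.00102 and 0.00506). Of 3 probes of the mitochondrial DNA-binding factor Tfam 2 fell, by 0.59 (SE 0.11) and 0.28 (SE 0.10; adjusted p = 0.00136 and 0.0436), and the third changed by -0.25 ± 0.10 (SE, adjusted p = 0.0541). Of 16 tricarboxylic acid cycle probes 5 rose and 4 fell (56.2% called), among them Suclg1 (-0.70 ± 0.08) and Suclg2 (-0.83 ± 0.10), subunits of succinyl-CoA ligase (SE, adjusted p = 6.53e-05 and 9.04e-05). Of 7 probes of carriers and porins 4 rose and 0 fell (57.1% called), with the outer membrane channels Vdac1 at 0.45 ± 0.09 and Vdac3 at 0.38 ± 0.08 (SE, adjusted p = 0.00249 and 0.00305).

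Many respiratory genes are known targets of nuclear respiratory factor 1 (NRF1), so promoters were searched for its motif (GCGCA, any base, then GCGC) on both strands, in windows of 250 bases before to 50 after the start from RefSeq (build GRCm38.p6). Of 92 members with a tested probe 74 had a window, and 18 of these held the motif (24.3%), against 1154 of 17492 protein-coding genes (6.6%). The ETS motif CCGGAAGT was in 6.76% of members and 5.29% of all windows, and the YY1 motif AAGATGGCG in 9.46% and 1.94%. In 0 windows did matches of 2 different motifs overlap. Among members with a lower and no higher probe at 18 h, 6 of 12 windows held the NRF1 motif, among those with a higher and no lower probe 5 of 27, and among those with no call 7 of 32. The 30-base stretches of those 6 genes are shown as the matches found among members lower at 18 h, of which the other 6 windows held none, with capitals marking the match on either strand and Uqcrc1 carrying 2.
Uqcrc1, chr9:108936643-108936672, plus strand: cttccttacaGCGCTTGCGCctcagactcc
Uqcrc1, chr9:108936668-108936697, plus strand: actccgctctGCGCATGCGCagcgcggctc
Ndufa11, chr17:56717692-56717721, plus strand: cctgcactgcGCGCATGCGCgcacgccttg
Ndufa6, chr15:82354249-82354278, minus strand: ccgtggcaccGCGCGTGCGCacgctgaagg
Ndufa5, chr6:24527697-24527726, minus strand: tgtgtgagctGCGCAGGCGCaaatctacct
Atp5h, chr11:115420041-115420070, minus strand: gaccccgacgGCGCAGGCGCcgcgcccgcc
Ndufaf5, chr2:140170652-140170681, plus strand: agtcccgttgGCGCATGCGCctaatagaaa
A match describes the letters of the window and no binding was measured. The matches of Ndufa11, Ndufa5 and Atp5h start 60, 190 and 141 bases before the gene start, and those of the other genes lie after it.

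After 3 weeks in formalin, 0 of the 123 probes differed between furan and corn oil livers with limma at an adjusted p under 0.05, where 0.118% of all tested probes did (0.0876% higher and 0.0303% lower). At an unadjusted p under 0.05 there were 15, and the smallest adjusted p was 0.111. With median centring 46 passed, 45 higher and 1 lower. Calls over all tested probes rose with median centring too, as given in the last section, and their directions are not given. The 46 can therefore not be read as a shift of the members alone. The median change was 0.08, against 0.00 over all tested probes. Groups did not overlap at 26 probes above and 4 below, where 7.54% and 5.85% of all tested probes were so placed. The 19 probes that were lower at 18 h had a median change of -0.02 at 3 weeks, with a range of -0.33 to 0.72, and the 41 that were higher had a median of 0.08, with a range of -0.28 to 0.47.

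Cox6b1 stood at -0.52, -0.83, -0.72 and -1.15 in furan livers at 3 weeks and at -0.63, -0.70 and -1.09 in corn oil livers, a difference of 0.00 ± 0.16 (SE, adjusted p = 0.999). Cyc1 stood at 0.36, 0.26, 0.19 and 0.03 in furan livers and at 0.36, 0.33 and 0.06 in corn oil livers, a difference of -0.04 ± 0.13 (SE, adjusted p = 0.932). The groups lay over each other for both genes, as they did for Atp5j, with -1.47, -1.30, -1.20 and -1.31 in furan livers against -1.37, -1.41 and -1.38 in corn oil livers. Ndufs8 stood apart from these, at -0.18, 0.12, -0.27 and -0.12 in furan livers and at -1.06, -0.73 and -0.70 in corn oil livers, without overlap. Its probe was not well above background on any of the 4 arrays of the corn oil livers and was so on all 4 of the furan livers, so that it was at least 1.62-fold higher in furan livers, with an adjusted p of 0.111. At least N-fold here sets the mean of the brighter group against, per array, the higher of the dim probe's own signal and the lowest signal among probes well above background.

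The muscle isoforms were uneven among the furan livers at 3 weeks. Cox6a2 stood at -0.65, 0.71, -0.91 and -1.08 in furan samples 41 to 44 and at -0.56, -0.55 and -0.30 in corn oil livers. Cox7a1, also an isoform of heart and skeletal muscle, stood at 0.54, 1.04, -0.04 and 0.34 in the same furan samples and at 0.04, -0.13 and 0.07 in corn oil livers. Sample 42 was the highest for both. In that sample the skeletal muscle markers Tnnt3 and Acta1 stood at 3.08 and 2.03, while the other furan livers at 3 weeks lay between -0.85 and -0.75 for Tnnt3 and between -0.54 and -0.42 for Acta1. Corn oil sample 6 at 3 weeks was also high for Tnnt3, at 1.07. Without sample 42 the furan change was -0.40 for Cox6a2, against -0.01 with it, and 0.31 for Cox7a1, against 0.47 with it (adjusted p = 0.435 and 0.567).

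The change between furan and corn oil at 3 weeks minus that at 18 h passed the test at 25 of the 123 probes, 13 higher and 12 lower, where 12.8% of all tested probes passed (7.82% higher and 4.94% lower). All 13 of the higher ones were among the 19 that fell at 18 h, and 10 of the 12 lower ones were among the 41 that rose. The other lower ones were Cox8c and Atp5g2 probe 2. This overlap is partly built in, since the difference contains the 18 h change with its sign reversed. The difference was 1.02 ± 0.20 for Cox6b1 and 0.97 ± 0.14 for Cyc1 (SE, adjusted p = 0.00446 and 0.000994). For Ndufs8 and Cox8c only fitted values are given, in a later section, and these cannot be read as measured sizes. Ndufs8 was not well above background in corn oil livers at 3 weeks, and Cox8c was well above background in neither group at 18 h. The difference was -0.76 ± 0.14 for Atp5j and -0.94 ± 0.14 for Ndufs4 (SE, adjusted p = 0.00283 and 0.00116). The split depended on the processing, with 14 rises and 26 falls in the values deposited by the authors, 7 and 18 with median centring and 23 and 12 without background subtraction. Within slide 1 or slide 2 alone 0 probes passed. Shares of all tested probes under these settings are not given.

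**Figure D3:**
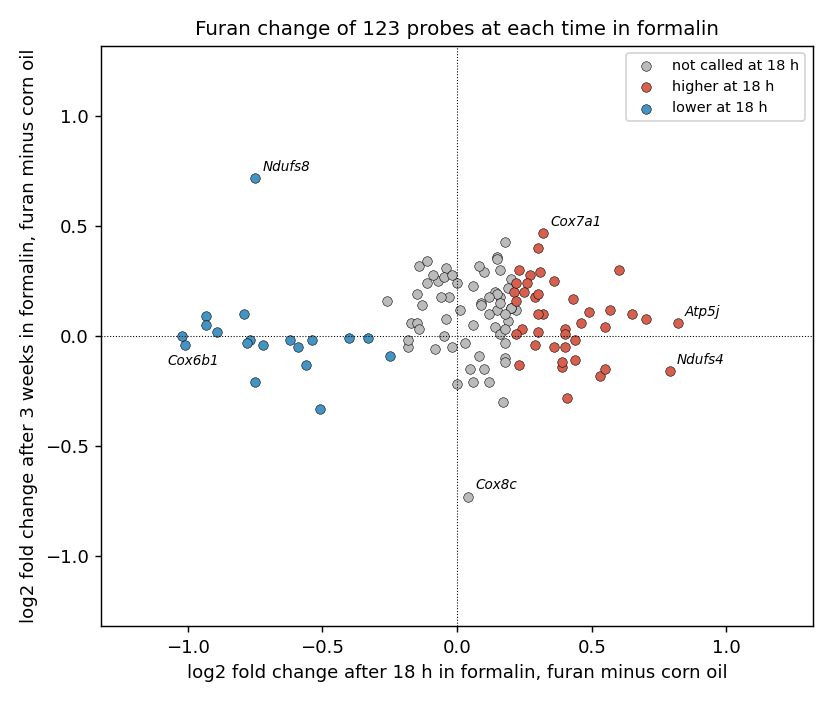
Furan change of each of the 123 probes after 18 h in formalin (horizontal axis) and after 3 weeks (vertical axis), both as log2 fold change of furan over corn oil livers on the same scale, coloured by the call at 18 h. The probes spread from -1.02 to 0.82 along the horizontal axis and mostly within 0.5 of zero along the vertical one, with Ndufs8 and Cox8c outside that band; Ndufs8 was not well above background in corn oil livers at 3 weeks, where its rise is only bounded (at least 1.62-fold), and Cox8c in neither group at 18 h.

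Between 3 weeks and 18 h in formalin, averaged over furan and corn oil livers, 105 of 123 probes differed, 38 higher and 67 lower at 3 weeks, or 85.4%, where 74.2% of all tested probes did (37.3% higher and 36.9% lower). The median change was -0.24, against 0.01 over all tested probes. With median centring 22 were higher and 85 lower, and the median of all tested probes moved to -0.27. The share of all tested probes called in each direction under that setting is not given. Cell type markers moved over the same times, with 8 of 11 hepatocyte probes lower at 3 weeks (median -1.31), 5 of 6 stellate cell probes (median -0.64) and 5 of 7 endothelial probes (median -0.61). Of the others, 3 Kupffer cell probes were higher and 4 lower of 9, 2 erythroid higher and 4 lower of 7, 3 of 4 lymphocyte higher, 1 of 2 cholangiocyte in each direction and 1 of 3 muscle higher, and their part in the members' changes was not tested. The median of the 123 probes lay between -0.27 and -0.03 in furan livers at 3 weeks, between -0.32 and -0.18 in corn oil livers at 3 weeks, between 0.03 and 0.05 in furan livers at 18 h and between -0.12 and 0 in corn oil livers at 18 h. Tested apart, 101 probes differed in furan livers (42 higher, 59 lower), where 67.2% of all tested probes did (35.1% higher, 32% lower), and 85 in corn oil livers (32 higher, 53 lower), where 59.4% did (28.6% higher, 30.8% lower). Of the members, 78 had the same call in both.

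By class, complex I had 14 probes higher and 27 lower at 3 weeks, its assembly factors 2 and 5, complex II 2 and 1, complex III 5 and 8, cytochrome c 2 and 0, complex IV 7 and 11 and complex V 6 and 15. The shares called were 93.2%, 87.5%, 50%, 86.7%, 100%, 85.7% and 77.8% in that order, where 74.2% of all tested probes were called. Complex V had the lowest median among these with over 10 probes, at -0.44. The catalytic subunits were not shifted alike, since Atp5a1 changed by 0.11 ± 0.07 without passing the test (adjusted p = 0.151) and Atp5b fell by 0.44 (SE 0.07, adjusted p = 1.40e-05).

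Ndufb8, an accessory subunit of complex I that is often used as a marker of its assembly, had the largest fall among the members. It stood at -1.56, -1.63, -1.75 and -2.12 in furan livers at 3 weeks, against 0.52, 0.55, 0.47 and 0.34 in furan livers at 18 h. In corn oil livers it stood at -1.52, -1.68 and -1.98 at 3 weeks, against -0.03, 0.32, 0.18 and 0.23 at 18 h. The ranges were far apart, and the mean change was -2.07 ± 0.08 (SE, adjusted p = 1.59e-12). Ndufc2 followed at -1.98 ± 0.07 and Ndufb3 at -1.64 ± 0.07 (SE, adjusted p = 6.06e-13 and 1.73e-12).

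The Rieske protein Uqcrfs1 stood at -2.00, -1.85, -2.00 and -1.95 in furan livers at 3 weeks, against 0.01, 0.05, 0.27 and 0.18 at 18 h. In corn oil livers it stood at -1.85, -1.88 and -1.97 at 3 weeks, against -0.25, -0.32, -0.32 and -0.02 at 18 h, and the mean change was -1.88 ± 0.07 (SE, adjusted p = 8.88e-13). Cox4i1 fell by 1.70 and Cox5a by 1.31 (SE 0.07 each, adjusted p = 1.71e-12 and 8.86e-11). Cyc1, in the same complex as Uqcrfs1, changed by 0.11 ± 0.07 and did not pass the test (adjusted p = 0.156).

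Cox7a2, the form of subunit 7a found in most tissues, rose at 3 weeks. It stood at 0.95, 0.92, 1.17 and 0.93 in furan livers at 3 weeks, against -0.58, -0.67, -0.46 and -0.68 at 18 h. In corn oil livers it stood at 0.62, 0.60 and 0.82 at 3 weeks, against -0.50, -0.62, -0.55 and -0.57 at 18 h, and the mean change was 1.42 ± 0.07 (SE, adjusted p = 1.23e-11). The bright probe of Ndufv3 rose by 1.40 ± 0.07 and the assembly factor Ndufaf8 by 1.12 ± 0.07 (SE, adjusted p = 1.33e-11 and 3.36e-10). Both probes of Cycs were higher at 3 weeks, by 0.63 ± 0.07 and 0.18 ± 0.07 (SE, adjusted p = 7.33e-07 and 0.0295), and with median centring the second changed by -0.54.

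**Figure D4:**
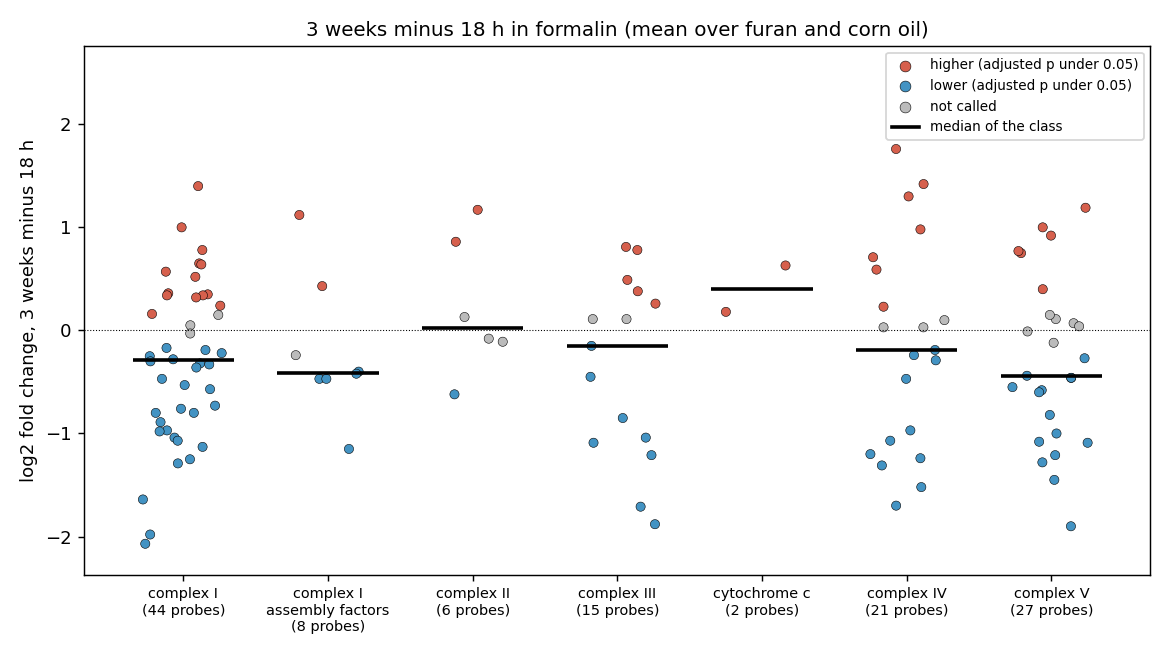
Change of each of the 123 probes at 3 weeks relative to 18 h in formalin, averaged over furan and corn oil livers (vertical axis, log2 fold change), grouped by respiratory complex; colours mark adjusted p under 0.05 and black bars the class medians. Values run from -2.07 (Ndufb8) to 1.76 (Cox7c probe 2) and every complex with over 10 probes holds calls in both directions, more of them lower; with median centring 22 probes would be higher and 85 lower.

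For some members the level was bounded by background. The probe of Ndufs8 was well above background on 0 arrays of corn oil livers at 3 weeks and on all 4 at 18 h. The probe of Ndufaf3 was so on 0 arrays at 3 weeks and on all 8 at 18 h. No fold over time is given for either. Cox8c, a testis isoform, was on no array at 18 h well above background, and was at least 1.52-fold higher at 3 weeks in furan livers, where 2 of 4 arrays measured it, and at least 2.17-fold higher in corn oil livers. It passed the filter on dim signals only through the corn oil livers at 3 weeks, where it was high. Its rise over time is therefore partly set by the filter.

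In the comparison of the times in formalin, probes of the same gene had opposite calls in 12 of the 24 member genes with several tested probes (50%), against 28.7% of the 3018 genes on the array. The 12 were Ndufa5, Ndufb5, Ndufv3, Sdhc, Uqcr10, Uqcrq, Cox7a2l, Cox7c, Cox8a, Atp5g2, Atp5k and Atp5l. The widest split was that of Cox7c, a small subunit of complex IV. Its bright probe 1 stood at -1.42, -1.41, -1.44 and -1.50 in furan livers at 3 weeks, against 0.17, 0.20, 0.20 and 0.14 at 18 h, and its probe 2 at 1.52, 1.47, 1.10 and 0.94, against -0.60, -0.75, -0.93 and -0.82. The changes were -1.52 ± 0.06 for probe 1, 1.76 ± 0.08 for probe 2 and -0.24 ± 0.09 for probe 3 (SE, adjusted p = 3.04e-12, 6.90e-12 and 0.0223). Cox7c thus gave the highest rise and a large fall among the members.

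Atp5l, subunit g of the ATP synthase, had 5 tested probes whose changes ran from -1.21 ± 0.07 to 1.19 ± 0.08, with 2 higher and 2 lower. Cox8a had a bright probe at 0.98 ± 0.07 and a dimmer one at -1.24 ± 0.07, Atp5k 1.00 ± 0.07 and -1.08 ± 0.07, and Uqcrq 0.26 ± 0.06 and -1.71 ± 0.07. In each of these 3 genes the brighter probe rose and the dimmer one fell. Other genes went the opposite way, since in Sdhc and Cox7c the brighter probe 1 fell and probe 2 rose. Uqcrb, with 3 probes between -1.21 and -0.85, and Uqcrh, with 2 at 0.49 and 0.81, gave the same direction on every probe.

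**Figure D5:**
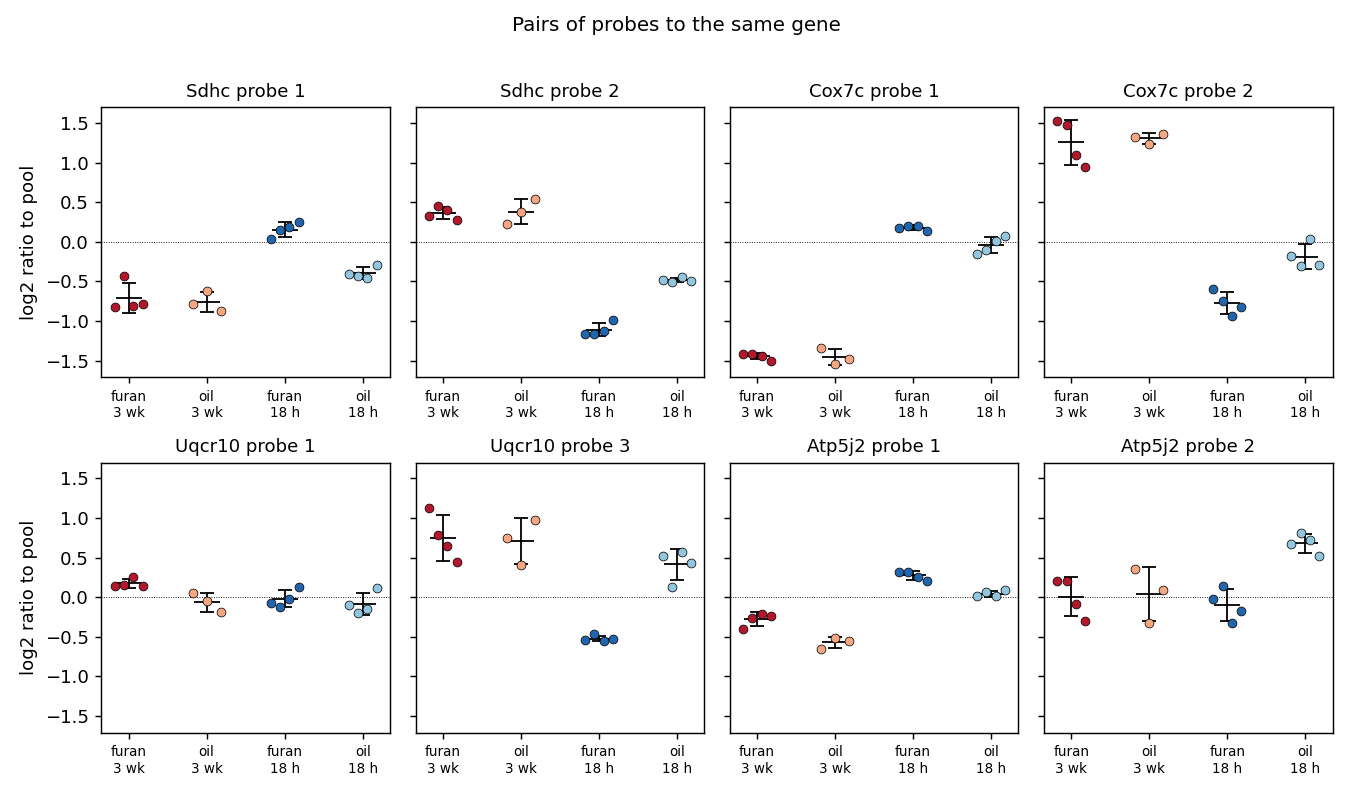
Log2 ratio to the pool (vertical axis) in each sample for pairs of probes to Sdhc, Cox7c, Uqcr10 and Atp5j2; each point is a sample, the cross line and bar are the mean and SD, and the groups run from furan at 3 weeks to corn oil at 18 h. At 3 weeks probe 1 of Cox7c lies between -1.54 and -1.34 and probe 2 between 0.94 and 1.52, and the furan livers at 18 h are below the corn oil livers on probe 2 of Sdhc and of Cox7c and above them on probe 1.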

How the data were processed

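Livers were measured on 2-colour Agilent mouse arrays, 16 in all on 2 slides, for 15 samples, with no dye swap, per the labels' protocols. Per the labels, groups held biological replicates. The deposited scanner files, made with Agilent Feature Extraction 11.0.1.1 per the file headers, give median spot and background brightness as intensity without normalization, Agilent's ratio of sample to pool as log10, and flags. The deposited value table holds the authors' log2 ratios, normalized by a method not stated, with column medians between -0.00919 and 0.0247 and slopes against the values used here of 0.644 to 0.799. Precision is limited by the number of arrays. Direction follows the labelled dyes, and the lowest correlation between arrays over all probes was -0.25.

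Background was corrected with normexp (offset 50), ratios were normalized by loess within arrays, outlier spots were left out and spots of a probe averaged. Corn oil arrays 2.1 and 2.2 (correlation 0.92) share a sample number and were averaged; their columns in the deposited table matched each other's scanner file (correlation 0.97, against 0.86 for the same name). Probes well above background on at least 3 arrays of a group were tested with limma 3.58.1 in R 4.3.3, with slide as a term, furan comparisons within their time and the others over all samples. Two-sided p-values were adjusted (Benjamini-Hochberg) across the 29685 tested probes. The script was tested on simulated data. Symbols came from RefSeq for 27235 of 55681 probes. Probe numbers within a gene run from bright to dim.

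Named were the 8 largest rises and falls per comparison, core and isoform genes, genes with opposed probes, and up to 2 genes per further list. Members and lists were chosen with earlier results of these data known. The values of 1 member are not reported here.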

Additional observations from a re-analysis of the deposited data

Results flagged for a closer look

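For 25 probes the furan change at 3 weeks minus that at 18 h passed the test of the difference itself (limma, adjusted p under 0.05). Among them, in complex I it was 0.90 for Ndufa10, 1.01 for Ndufa11, 0.54 for Ndufa6 and 1.46 for Ndufs8, and -0.61 for Ndufa7, -0.54 for Ndufb4 probe 2 and -0.94 for Ndufs4. The fitted value of Ndufs8 sets furan livers against corn oil livers whose probe was not well above background at 3 weeks. In the assembly factors it was -0.72 for Ndufaf4 probe 1 and -0.70 for Ndufaf7. In complex II it was 0.69 for Sdhb probe 2, -0.51 for Sdhc probe 1 and 0.60 for Sdhc probe 2. In complex III it was 0.97 for Cyc1, 0.98 for Uqcr10 probe 3 and 0.91 for Uqcrc1. In complex IV it was 1.02 for Cox6b1 and 0.54 for Cox7c probe 2, and -0.52 for Cox4i1, -0.46 for Cox5a, -0.55 for Cox7b and -0.77 for Cox8c, whose probe was well above background on 0 arrays at 18 h. The Cox8c probe passed the filter on dim signals only through the corn oil livers at 3 weeks, where it was high. Its fitted value and call are therefore partly set by the filter. In complex V the difference was 0.74 for Atp5j2 probe 2, -0.48 for Atp5g2 probe 2 and -0.76 for Atp5j.

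In 8 of 210 groups of 4 samples, 1 sample lay further from the others than Dixon's limit allows, where chance flags about 1 in 20. In furan livers at 3 weeks these were sample 44 for Ndufa10 (-0.42, nearest -0.03), sample 42 for Sdhc probe 1 (-0.43, nearest -0.79) and sample 43 for Uqcr10 probe 1 (0.26, nearest 0.15) and Cox7a2 (1.17, nearest 0.95). In furan livers at 18 h it was sample 43 for Cox7a1 (0.62, nearest 0.23). In corn oil livers at 18 h these were sample 6 for Ndufb4 probe 1 (-0.21, nearest -0.46) and Atp5a1 (0.09, nearest -0.14), and sample 2 for Cox8a probe 1 (-0.57, nearest -0.37).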

How the results depend on the processing

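Of the 60 probes called for furan at 18 h, the count moved to 104 with median centring, 30 on slide 1 alone and 27 on slide 2 alone, and to between 48 and 59 when 1 sample was left out. For furan at 3 weeks it moved from 0 to 46 with median centring, to 1 on slide 2 alone and to 1 with arrays 2.1 and 2.2 as separate samples, and lay between 0 and 1 when 1 sample was left out (1 without corn oil sample 4, Cox8c, as on slide 2 alone). The difference between the times, 25 probes, gave 15 with Agilent's ratios, 40 with the deposited values, 16 without the filter and 0 on either slide, where fewer samples were tested, and between 19 and 26 when 1 sample was left out. Time in formalin, 105 probes, gave between 102 and 104 when 1 sample was left out. Over all tested probes the calls for furan at 3 weeks, 35, ranged from 0 with Agilent's ratios to 2348 with median centring. Median centring turned Ndufb6 probe 1 to 0.11 for furan at 18 h, and for time in formalin turned Ndufa11 to -0.33, Ndufa5 probe 1 to -0.11, Ndufb5 probe 1 to -0.11 and Cycs probe 2 to -0.54; the cause was not tested. Splits of higher against lower calls also moved for furan at 18 h to 97 against 7, and for the difference between the times to 22 against 11 with plain subtraction and 12 against 3 with Agilent's ratios. Of 740 values of named probes called at 18 h under an alternative, 646 kept direction and call, 93 lost the call and 1 turned. For the difference between the times it was 507, 115 and 0 of 622, and for time in formalin 1706, 64 and 4 of 1774. Same-numbered samples of the 2 times correlated between -0.22 and 0.16 after group means were removed, and numbers 2 and 4, but not 6 or 41 to 44, correlated best with their own number. The labels do not say whether a number marks the same liver at both times, and these correlations do not settle it. With a replicate block (correlation 0.03) the counts were 25 for the difference between the times, 105 for time in formalin, 85 in corn oil livers and 102 in furan livers. Signal over background limits the dim members, above all at 3 weeks, where a smaller share of probes was well above background than at 18 h.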
